A study of Mus musculus with 4 samples.

Results

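Decitabine, which the study calls 5-Aza-CdR, is a deoxycytidine analog, and a cell handles it with the enzymes that handle its own nucleosides. The 7 genes described here carry, phosphorylate, deaminate or hydrolyse such molecules, and they were Slc29a1, Slc29a2, Dck, Cda, Dctd, Samhd1 and Ada. They were chosen by gene symbol, each had 1 named probe, and they are 7 of the 16446 genes with a named probe. The organoids came from intestinal polyps of ApcMin mice, which carry a mutant Apc allele, and all 4 cultures shared this genotype and a serum-free Matrigel culture with EGF and Noggin. The arrays held organoids that had received 1 μM 5-Aza-CdR for 24 hours and were taken at day 4, their untreated control of the same day, organoids taken 9 days after infection with a lentivirus for an shRNA against Dnmt1, and organoids infected with an empty-vector control shRNA virus and taken on that same day. Infected organoids had been selected with puromycin, and each condition was 1 culture on 1 array. The comparisons were 5-Aza-CdR over the untreated control, the drug pair, and Dnmt1 knockdown over the control shRNA, the knockdown pair. A single array per condition leaves every difference without a replicate check, so p-values are not given.

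The equilibrative nucleoside transporters, products of Slc29a1 and Slc29a2, let nucleosides and many analogs cross the plasma membrane down their gradient. Deoxycytidine kinase, the product of Dck, adds the first phosphate to deoxycytidine and to 5-Aza-CdR, and further kinases make the triphosphate that polymerases place in DNA, where it traps DNA methyltransferases. Cytidine deaminase (Cda) inactivates the free analog, deoxycytidylate deaminase (Dctd) acts on its monophosphate, and Samhd1 hydrolyses deoxynucleoside triphosphates. Adenosine deaminase (Ada) acts on adenosine and deoxyadenosine and belongs to the same salvage network on the purine side. The intestinal epithelium uses salvage to reclaim nucleosides from food and from shed cells.

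The methylation of DNA lies on CpG dinucleotides, so the bases in front of the start sites of the kinase, the deaminase and the triphosphohydrolase are shown as RefSeq gives them for GRCm38.p6, 250 bases each, 5′ to 3′ on the strand of the gene, with every CpG in capitals. The windows lie at chr5:88764763-88765012 on the plus strand for Dck, at chr4:138367956-138368205 on the minus strand for Cda and at chr2:157135097-157135346 on the minus strand for Samhd1. The Cda window lies within the annotated span of its gene, which reaches to 138368311, so its start site is not the outermost one.
Dck: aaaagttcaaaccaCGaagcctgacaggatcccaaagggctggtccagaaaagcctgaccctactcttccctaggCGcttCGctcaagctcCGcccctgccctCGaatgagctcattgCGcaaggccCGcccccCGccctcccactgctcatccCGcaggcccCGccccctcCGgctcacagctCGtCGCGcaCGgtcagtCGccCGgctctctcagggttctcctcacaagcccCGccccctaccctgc
Cda: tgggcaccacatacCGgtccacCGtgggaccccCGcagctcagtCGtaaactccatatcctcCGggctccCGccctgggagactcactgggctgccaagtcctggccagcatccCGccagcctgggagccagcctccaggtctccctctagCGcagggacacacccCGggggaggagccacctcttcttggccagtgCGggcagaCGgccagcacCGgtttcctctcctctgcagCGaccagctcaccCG
Samhd1: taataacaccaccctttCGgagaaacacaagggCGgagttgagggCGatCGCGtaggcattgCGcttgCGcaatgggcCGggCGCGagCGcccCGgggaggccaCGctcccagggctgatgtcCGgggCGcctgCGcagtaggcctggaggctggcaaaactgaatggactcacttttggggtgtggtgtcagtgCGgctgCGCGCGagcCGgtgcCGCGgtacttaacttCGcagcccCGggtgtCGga
The Samhd1 window held 26 CpG, and 8.56% of all 32851 RefSeq promoter windows of this length held more. The Dck window held 18 CpG and the Cda window 14, with 19.7% and 27.3% of all windows above them. The ratio of observed to expected CpG was 0.99 for Samhd1, 0.76 for Dck and 0.50 for Cda. The median window of all held 6 CpG.

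The other members lay between these or had several start sites. The Slc29a2 window held 16 CpG and the Ada window 14. Like the Cda window, that of Slc29a2 lies within the annotated span of its gene. Slc29a1 had 8 windows with 2 to 24 CpG, and Dctd had 3 windows with 4 to 7. The motif GGGCGG, a GC box, was searched on both strands and contains 1 of the counted CpG in each match. It occurred in 10 of the 16 windows, against 32.7% of all windows. At least 1 window of 6 of the 7 genes held it, and the share of all genes was not taken. Slc29a1 gave 8 of the 16 windows and some Dctd windows overlap, so these are not 16 separate promoters. In the Dck window it matched 5 times, each on the strand opposite to the gene. The core of interferon-stimulated response elements, searched as GAAA, any 2 bases and GAAA on both strands, was found in 0 of the 16 windows and in 2.98% of all windows. These counts describe letters only. Methylation at these sites was not analysed here.

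**Figure D1:**
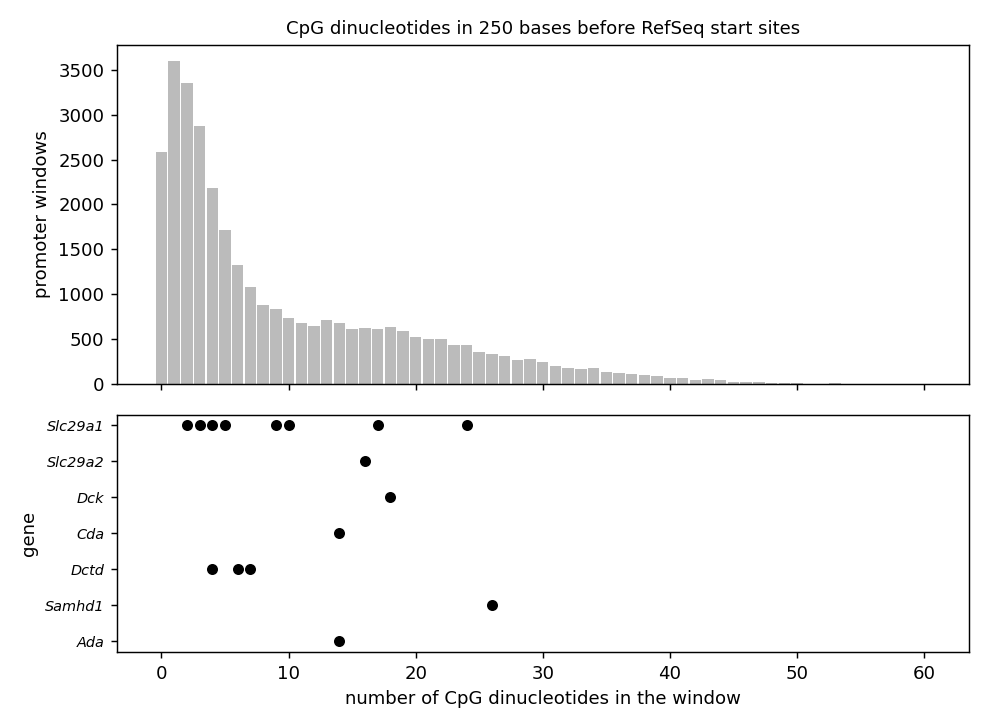
Number of CpG dinucleotides in the 250 bases before RefSeq start sites, for all 32851 windows (bars, upper panel) and for each window of the 7 genes (points, lower panel). The Samhd1 window lies farthest right with 26, and the 8 windows of Slc29a1 spread between 2 and 24.

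The arrays could measure all 7 genes. The intensities the authors deposited are spot signals with the mean of the blank spots subtracted and each array scaled to a median of 25. On every array each of the 7 probes lay above the detection limit, the blank mean plus 2 SD. Each also lay above the level that 95% of the spots without a probe stayed under, which was 1.90 with 5-Aza-CdR, 2.42 in the untreated control, 4.48 with Dnmt1 knockdown and 3.37 in the control shRNA. Detected probes made up 81.1% to 92.9% of 23473. Dnmt1, the target of the knockdown, had an intensity of 71.7 with Dnmt1 knockdown and 126 in the control shRNA. After 5-Aza-CdR it was 368, against 239 in the untreated control. The normalized log2 ratios of Dnmt1 were -0.69 in the knockdown pair and 0.39 in the drug pair, both short of the 2-fold limit given below. The study states that Dnmt1 expression had fallen significantly at both harvest times, while the drug-treated array here lay above its control. Of 4 epithelial markers with a named probe, Tacstd1 (Epcam) had intensities of 7199, 7627, 2684 and 3466 on the 5-Aza-CdR, untreated, Dnmt1 knockdown and control shRNA arrays, and Cdh1 had 2323, 1455, 1093 and 968. The other two were dim in at least 1 culture, with Krt19 at 6.71, 6.32, 4.86 and 3.11 and 9030623C06Rik (Krt20) at 9.58, 3.24, 27.4 and 92.1 on the same arrays. By the 2-fold rule given below, Krt20 was called lower in the knockdown pair (normalized log2 ratio -1.22). It was the only 1 of the 4 called in either comparison. A lower signal in a bulk culture can come from fewer cells of a type or from less RNA per cell, and these cannot be told apart.

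None of the 7 genes differed 2-fold in either comparison. Log2 ratios were taken after normexp background correction with an offset of 50 and quantile normalization over the 4 arrays, and a gene was called when it differed at least 2-fold and was detected on the brighter array. In the drug pair 0.934% of 15640 genes were called higher and 0.652% lower. In the knockdown pair 0.327% of 14393 genes were called higher and 0.139% lower. At a limit of 1.5-fold, 1 of the 7 genes, Slc29a1, passed with 5-Aza-CdR and 0 with Dnmt1 knockdown, against 5.14% and 1.97% of all genes in either direction. The median log2 ratio of the 7 genes was 0.0091 in the drug pair and 0.0002 in the knockdown pair, and those of all genes were -0.0055 and -0.0049. In both comparisons 4 of the 7 ratios were above 0 and 3 below. The offset of 50 draws dim genes toward 0, so ratios of the deposited intensities are given for each member beside the normalized ones. The median signal of all probes over the blank mean was 18.5 to 34.9 on the 4 arrays, below the offset. The ratios of most genes are thus drawn in, which raises the rank of bright members among all genes. The shares of genes with a larger absolute ratio, given below, hold for the normalized values only. In the deposited intensities 6.05% of genes were called higher and 2.09% lower in the drug pair, and 5.91% and 0.813% in the knockdown pair. The deposited values carry their own shift, with a median log2 ratio over all genes of 0.17 in the drug pair and 0.19 in the knockdown pair. As a measure of technical spread, log2 ratios of several probes for 1 gene scattered with an SD of 0.22 in the drug pair (147 genes) and of 0.15 in the knockdown pair (122 genes). This spread is not a replicate error. It was taken over detected probes of all intensities after the offset, which narrows the ratios of dim probes.

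**Figure D2:**
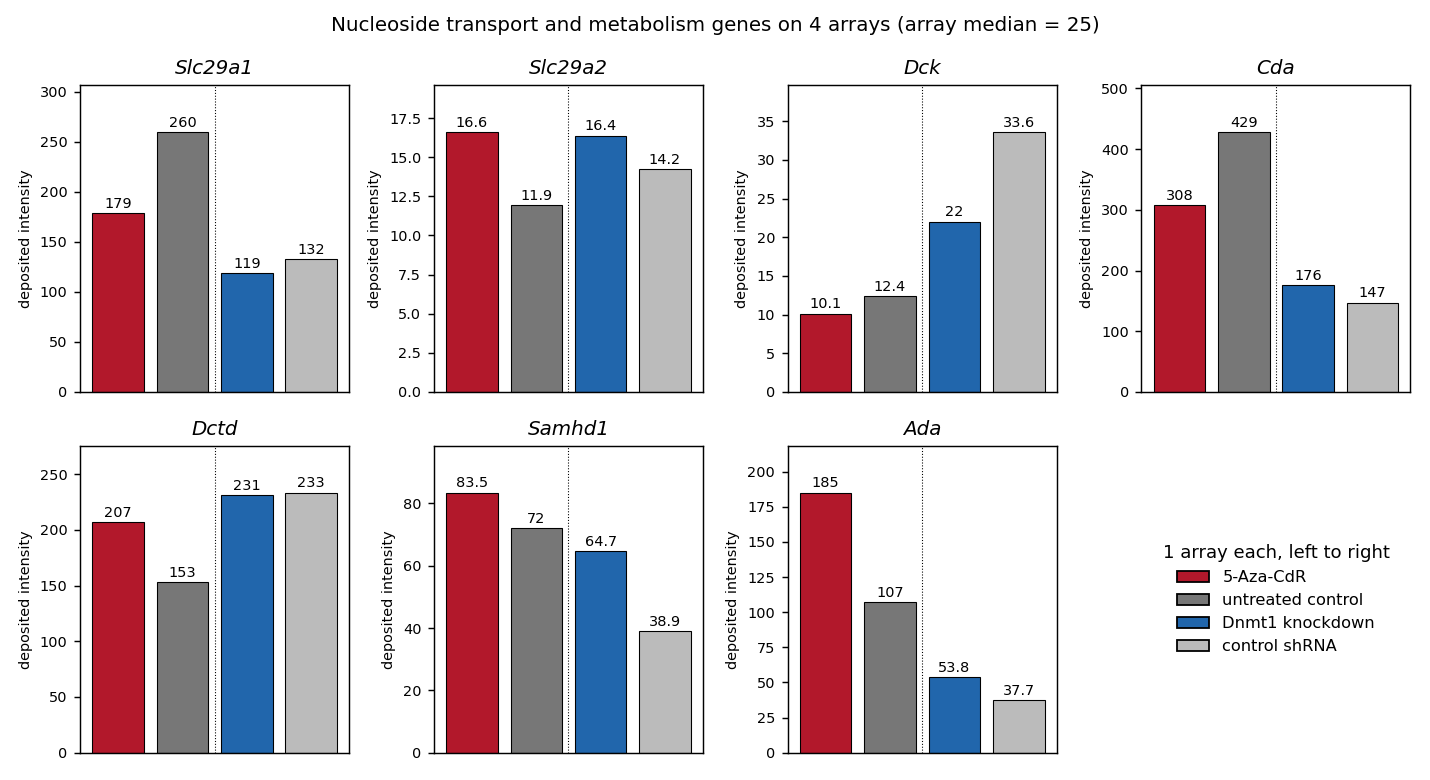
Deposited intensity (bars, linear axis from 0, array median 25) of the 7 genes on the 4 arrays, 1 array per condition and no error bars. Cda and Slc29a1 have their highest bar in the untreated control, Dck has its highest in the control shRNA at 33.6, and Ada has its highest with 5-Aza-CdR at 185.

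Of the transporters, Slc29a1, the main equilibrative transporter of most cells, was the member with the largest normalized ratio in the drug pair, while in the deposited intensities and with median scaling Ada lay farther from its control. Its intensity was 179 with 5-Aza-CdR and 260 in the untreated control, and 119 with Dnmt1 knockdown and 132 in the control shRNA. Both treated arrays thus lay below their own control. The normalized log2 ratio was -0.62 in the drug pair and -0.19 in the knockdown pair, and 4.50% and 22.4% of all genes tested had a larger absolute ratio. In the deposited intensities the ratios were -0.54 and -0.16. The first normalized ratio is larger than the spread between probes of a gene in that comparison (0.22), and the second is close to it (0.15). The unscaled spot signal over the blank mean was 322 with 5-Aza-CdR and 313 in the untreated control. Unscaled, the arrays thus gave nearly the same signal for Slc29a1, while the median signal over the blank mean of all probes was 34.9 with 5-Aza-CdR and 20.7 in the untreated control. The ratio was -0.23 with median scaling and -0.74 with plain blank subtraction. With the local background of each spot subtracted, an alternative chosen once the values were known, it was -0.13 in the drug pair and -0.80 in the knockdown pair.

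Slc29a2, the second plasma membrane transporter of the family, gave a dim signal. Its intensity was 16.6 with 5-Aza-CdR and 11.9 in the untreated control, and 16.4 with Dnmt1 knockdown and 14.2 in the control shRNA. These values lie within a narrow range. The normalized log2 ratios were 0.08 and 0.0002, and those of the deposited intensities 0.48 and 0.20. The sign of the first turned with 75th percentile scaling (-0.29) and that of the second with median scaling (-0.0028). Relative to Slc29a2, Slc29a1 was lower by a log2 difference of -0.70 with 5-Aza-CdR, and this difference ranged from -1.04 to -0.28 over the planned settings and was -0.14 with the local background subtracted.

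Dck, the kinase that activates the drug, gave a dim signal, with an intensity of 10.1 with 5-Aza-CdR, against 12.4 in the untreated control. With Dnmt1 knockdown it was 22.01, against 33.6 in the control shRNA. In these scaled intensities both treated arrays lay below their control. Its normalized log2 ratio was -0.10 in the drug pair and -0.38 in the knockdown pair, and those of the deposited intensities were -0.29 and -0.61. Of all genes tested, 42.9% and 5.76% had a larger absolute normalized ratio. The ratio stayed below 0 in all planned settings, between -0.53 and -0.10 with 5-Aza-CdR and between -0.81 and -0.30 with Dnmt1 knockdown. With the local background subtracted it was -0.02 and -0.34. The normalized ratio in the drug pair lies within the spread between probes of a gene (0.22). The unscaled signal over the blank mean was 18.25 with 5-Aza-CdR and 14.96 in the untreated control, so it was not lower with the drug. With Dnmt1 knockdown it was 28.37, against 46.81 in the control shRNA.

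Cda, the deaminase that removes the free analog, differed in direction between the comparisons. Its intensity was 308 with 5-Aza-CdR and 429 in the untreated control, and 176 with Dnmt1 knockdown and 147 in the control shRNA. The drug-treated array thus lay below its control and the knockdown array above it. The normalized log2 ratios were -0.57 and 0.15, with 5.36% and 28.6% of all genes farther from 0, and those of the deposited intensities -0.48 and 0.26. Median scaling gave -0.17 in the drug pair, and subtracting the local background gave -0.35. The value with Dnmt1 knockdown lies within the spread between probes of a gene. As with Slc29a1, the unscaled signal over the blank mean was not lower with the drug (556 with 5-Aza-CdR and 517 in the untreated control).

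The RNA signal of Dck was also set against that of Cda, as a difference of their log2 ratios. Enzyme levels, enzyme activity and drug metabolites were not measured, so the balance of activation and removal was not tested. The cultures of the knockdown pair received no 5-Aza-CdR. The normexp offset shrinks the ratio of the dim Dck more than that of the brighter Cda, and this enters the difference. With Dnmt1 knockdown Dck lay lower against Cda by -0.53, and by -0.99 to -0.42 over the planned settings. With 5-Aza-CdR the difference was 0.47, but it ranged from -0.02 to 0.47, and its sign is not settled. Dctd relative to Cda lay at 0.78 with the drug (0.75 to 0.91 over the planned settings) and at -0.21 with the knockdown (-0.27 to -0.21). With the local background subtracted these were 0.38 and -1.20.

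Dctd, which converts deoxycytidylate to deoxyuridylate and so feeds thymidylate synthesis, had an intensity of 207 with 5-Aza-CdR and 153 in the untreated control. With Dnmt1 knockdown it was 231, against 233 in the control shRNA. The drug-treated array thus lay above its control, and the knockdown pair was nearly level. The normalized log2 ratios were 0.21 and -0.06, both within the spread between probes of a gene, and those of the deposited intensities 0.44 and -0.01. Median scaling gave 0.59 in the drug pair, and subtracting the local background gave 0.03. With the local background subtracted the ratio in the knockdown pair was -0.94. Bright spots had a high local background (correlation of logs 0.81 to 0.96), and its subtraction can take away signal.

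Samhd1, the triphosphohydrolase, had the highest log2 ratio of the 7 genes with Dnmt1 knockdown. Its intensity was 64.7 with Dnmt1 knockdown and 38.9 in the control shRNA, and 83.5 with 5-Aza-CdR and 71.98 in the untreated control. The normalized log2 ratio with Dnmt1 knockdown was 0.40, with 5.16% of all genes farther from 0, and 0.73 in the deposited intensities. With 5-Aza-CdR it was 0.0091, and 0.21 in the deposited intensities, and its sign turned with 75th percentile scaling (-0.06). Samhd1 is abundant in myeloid cells. Immune markers had a summed intensity of 187 with Dnmt1 knockdown and 133 in the control shRNA, and 288 with 5-Aza-CdR and 308 in the untreated control. Of the 11 markers with a named probe, 7 to 9 were detected on an array, Itgam and Cd3g on none, and 0 were called in either comparison. The brightest was the macrophage marker Cd68, with 105 with Dnmt1 knockdown and 67.5 in the control shRNA, a normalized log2 ratio of 0.41, and with 178 with 5-Aza-CdR and 194 in the untreated control. Csf1r lay between 31.9 and 51.9 and S100a8 between 17.9 and 30.8 over the 4 arrays. Ptprc, the pan-leukocyte marker, had intensities of 4.84 and 2.41 in the knockdown pair and 2.91 and 3.38 in the drug pair, close to the spots without probe. The part of these signals in the Samhd1 ratio was not tested.

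Ada lay above its control in both comparisons. Its intensity was 185 with 5-Aza-CdR and 107 in the untreated control, and 53.8 with Dnmt1 knockdown and 37.7 in the control shRNA. The drug pair lay well above the knockdown pair. The normalized log2 ratios were 0.45 and 0.24, and those of the deposited intensities 0.79 and 0.51. Of all genes tested, 8.58% and 15.6% lay farther from 0. With median scaling the ratio in the drug pair was 0.83. In the mouse, Ada is abundant in keratinizing epithelium of the upper gut and in villus enterocytes. Markers of squamous or keratinizing epithelium (8 with a named probe) had a summed intensity of 15260 with 5-Aza-CdR and 1685 in the untreated control, and 47390 with Dnmt1 knockdown and 41890 in the control shRNA, nearly all of it from Sprr2b and Ly6d. Both genes were called higher in the drug pair, with log2 ratios of 3.37 and 3.23, and 0 of the 8 markers were called in the knockdown pair. The sum, taken from deposited intensities, and Ada both lay above the control within each pair. The list had a median normalized log2 ratio of 0.30 in the drug pair and 0.0044 in the knockdown pair. Between the controls the sum was higher in the control shRNA, while Ada was lower there (-0.69). Enterocyte markers (7 with a named probe) summed to 942 with 5-Aza-CdR and 620 in the untreated control, and to 2233 with Dnmt1 knockdown and 1903 in the control shRNA. In the drug pair the higher sum came from Vil1, at 857 with 5-Aza-CdR and 482 in the untreated control, while Fabp1 was called lower, at 21.1 and 83.7 on the same arrays. The list had a median log2 ratio of -0.0004 there. The part of either list in the Ada ratios was not tested.

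Ada was the only member whose normalized values spanned at least 1 on the log2 scale over the 4 arrays (1.14). Of 13457 genes detected on all arrays, the most alike after centring each gene on its mean were Cdc37, a kinase co-chaperone (Euclidean distance 0.04), Gtf3c1, a subunit of the RNA polymerase III factor TFIIIC (0.05), and Sec15l2 (0.07). The log2 ratio of Cdc37 was 0.50 in the drug pair and 0.22 in the knockdown pair. The likeness rests on 4 arrays.

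**Figure D3:**
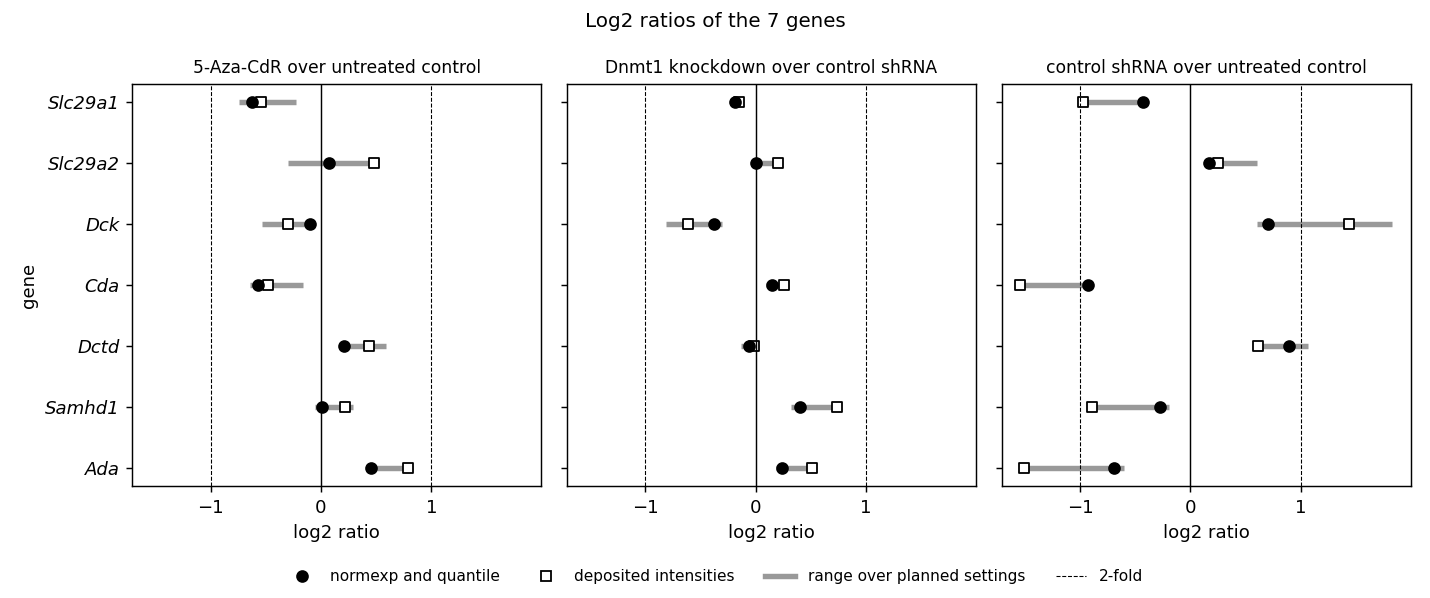
Log2 ratios (x axis) of the 7 genes in both comparisons and between the controls, as filled circles for the normalized values, open squares for the deposited intensities and grey bars for the range over the planned settings. No filled circle reaches the dashed 2-fold lines, and the circles of Slc29a1 and Cda lie farthest left with 5-Aza-CdR. Dck, Cda, Dctd and Ada have their widest ratios between the controls in both the normalized and the deposited values, and Slc29a2 in the normalized values only.

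The control cultures themselves differed for these genes. They are 1 array each, of organoids with and without a virus and taken on different days, so these factors cannot be told apart, and each is also the control of 1 of the comparisons above. The normalized log2 ratio of the control shRNA over the untreated control was 0.90 for Dctd, 0.70 for Dck and 0.17 for Slc29a2. It was -0.93 for Cda, -0.69 for Ada, -0.43 for Slc29a1 and -0.27 for Samhd1. At 2-fold 0 of the 7 genes passed, against 7.91% of 15141 genes. At 1.5-fold 4 passed, against 19.5% of all genes. In the deposited intensities 3 passed the 2-fold limit, against 33.7% of all genes on that scale, whose median was -0.50. These were Dck, at 33.6 in the control shRNA and 12.4 in the untreated control, Cda, at 147 and 429 on the same arrays, and Ada, at 37.7 and 107. With plain blank subtraction 4 passed, against 24.1% of all genes, at an offset of 16 2 passed, against 12.9%, and with median scaling 1 passed, against 7.88%. Over the planned settings the difference of Dck against Cda between the controls was 1.63 to 2.98, and 0.61 with the local background subtracted. The sign of Samhd1 turned with the local background subtracted (0.43).

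Beyond the 7 genes, a list of 67 genes of nucleoside and nucleotide metabolism was examined, of which 62 had a named probe. By the 2-fold rule 0 of 62 genes were called in the drug pair and 0 of 61 in the knockdown pair. The listed genes had a median log2 ratio of 0.05 in the drug pair and 0.0016 in the knockdown pair, close to those of all genes. Past 1.5-fold lay 4 of the 62 in the drug pair, where 5.14% of all genes did, and 3 of the 61 in the knockdown pair, where 1.97% of all genes did.

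Among the salvage kinases, Tyki (Cmpk2), the mitochondrial kinase of CMP and UMP that also takes dCMP, lay high in both comparisons. Its intensity was 64.1 with 5-Aza-CdR and 13.9 in the untreated control, and 49.8 with Dnmt1 knockdown and 11.7 in the control shRNA. Both treated arrays thus had several times the signal of their control. The normalized log2 ratios were 0.83 and 0.89, short of the 2-fold limit, and those of the deposited intensities were 2.21 and 2.09. Cmpk2 is known as an interferon-stimulated gene. Ak1, an adenylate kinase, had intensities of 77.3 with 5-Aza-CdR and 14.1 in the untreated control, and 47.1 with Dnmt1 knockdown and 18.7 in the control shRNA. Its normalized log2 ratios were 0.99 and 0.61, and the deposited ones 2.46 and 1.33. Uck2, which phosphorylates uridine and cytidine, had normalized log2 ratios of 0.35 and 0.44. Guk1, guanylate kinase, had the lowest normalized ratio of the list with 5-Aza-CdR, though not the lowest deposited one, at an intensity of 1595 against 2955 in the untreated control (-0.84), and had 0.06 with Dnmt1 knockdown. Nme6, of the nucleoside diphosphate kinase family, had 0.13 and -0.36. The 17 salvage kinases had medians of 0.13 in the drug pair and -0.0078 in the knockdown pair.

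Of the genes of deamination and breakdown, Xdh, which oxidizes hypoxanthine and xanthine to uric acid, had an intensity of 103 with 5-Aza-CdR and 29.6 in the untreated control. With Dnmt1 knockdown it was 84.8, against 73.9 in the control shRNA. The normalized log2 ratios were 0.88 in the drug pair and 0.07 in the knockdown pair, and in the deposited intensities the first passed the 2-fold limit. The difference between the pairs was not tested. The 18 genes of this group had medians of 0.05 and 0.06.

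Genes of thymidylate and deoxynucleotide synthesis had medians of 0.21 in the drug pair and -0.10 in the knockdown pair (12 genes each). With 5-Aza-CdR 9 of the 12 were above 0, and with Dnmt1 knockdown 3 of the 12 were. All genes had medians of -0.0055 and -0.0049. Ratios of probes for 1 gene scattered with an SD of 0.22 in the drug pair and 0.15 in the knockdown pair. The difference between the pairs was not tested. Rrm1, the large subunit of ribonucleotide reductase, had log2 ratios of 0.51 and 0.21. Ctps2, a CTP synthase, had -0.24 and -0.49. Dhodh, the mitochondrial step of pyrimidine synthesis, had -0.56 and 0.01, and Shmt1, a serine hydroxymethyltransferase, had 0.22 and -0.30.

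The other nucleoside transporters had log2 ratios of -0.11 to 0.06 in the drug pair and -0.08 to 0.64 in the knockdown pair. The purine salvage enzymes lay between -0.35 and 0.17 in the drug pair and between -0.26 and 0.33 in the knockdown pair, and the efflux pumps between -0.42 and 0.09 and between -0.36 and 0.34. Slc28a2, a concentrative carrier of purine nucleosides and uridine, had an intensity of 186 with 5-Aza-CdR and 165 in the untreated control, and 47.7 with Dnmt1 knockdown and 18.1 in the control shRNA. Its normalized log2 ratios were -0.0044 and 0.64, and in the deposited intensities the second passed the 2-fold limit. Its level was thus far lower in the infected cultures, and the knockdown ratio lies between such low levels. Slc28a1, a concentrative carrier of pyrimidine nucleosides, was detected on 2 arrays only, with intensities of 1.2 with 5-Aza-CdR and 0.91 in the untreated control, both below the level that 95% of the spots without a probe stayed under. Abcg2, an efflux pump, had -0.42 and -0.36 (-0.99 and -0.40 in the deposited intensities), and Hprt1 (Hprt), which salvages hypoxanthine and guanine, had -0.35 and 0.08.

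**Figure D4:**
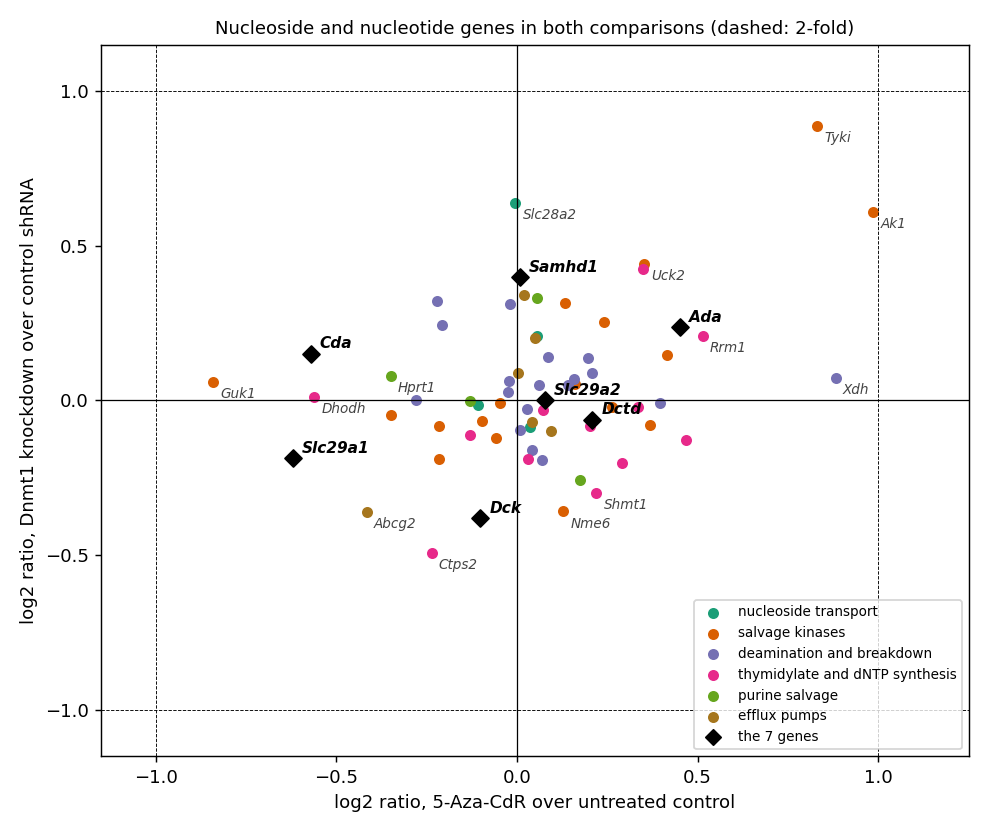
Log2 ratio with 5-Aza-CdR (x axis) against log2 ratio with Dnmt1 knockdown (y axis) for the 7 genes (black diamonds) and for the 61 listed genes tested in both comparisons (colored points by group). No point lies beyond a dashed 2-fold line, and Tyki (0.83 and 0.89) and Ak1 (0.99 and 0.61) lie farthest to the upper right.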

How the data were processed

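RNA of 4 organoid cultures had been hybridized to 1-color Toray arrays (Cy5). Per the file headers, spot signals had been read at several gains and joined by fitted lines. The authors deposited an intensity per probe, which recomputation showed to be the spot signal less the blank mean, scaled to an array median of 25 and left empty at or below the detection limit. On each array 99.99% or 100% (rounded) of recomputed values lay within 1% of the deposited ones. The software is not given in the sources used here. Uncorrected spot signals were corrected with normexp (offset 50, no local background) and quantile normalized with limma 3.58.1 in R 4.3.3. Later steps used Python 3.11.15, numpy 2.4.6, pandas 2.3.3 and matplotlib 3.10.9, and were tested on simulated data. The detection limit was the blank mean plus 2 SD, after trimming 5% of blanks at either end. Values below it were set to the lowest detected value. For a gene with several probes, the probe with the highest mean was taken. Symbols come from the platform annotation, in which 16631 of 23473 probes had 1 symbol, 0 several and 6842 none, and 16384 of 16446 symbols matched RefSeq (GRCm38.p6). All 7 genes matched the RefSeq promoter table. Precision is limited by the number of arrays, and no test was run. The members, lists and settings were chosen with earlier results of these data known. Named genes were the 7 members, listed genes that were called, the 4 highest and 4 lowest of the list in each comparison, and for members spanning at least 1 on the log2 scale the 3 nearest genes. Slc28a1 and the markers other than Sprr2b, Ly6d, Fabp1 and Krt20, which were called, were named after their values were seen. The alternatives tried comprised deposited intensities, plain blank subtraction, an offset of 16, other scalings, other detection filters, the mean of the probes, and limits of 1.5-fold and 3-fold.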

Additional observations from a re-analysis of the deposited data

Results flagged for a closer look

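Cda and Dctd lay on opposite sides of their controls in the 2 comparisons, with 1 array on each side and at least 1 of the ratios 0.2 or more from 0. The log2 ratio of Cda was -0.57 in the drug pair and 0.15 in the knockdown pair. That of Dctd was 0.21 in the drug pair and -0.06 in the knockdown pair. With median scaling the ratio of Cda in the drug pair was -0.17 and that of Dctd was 0.59. The differences between the comparisons were not tested.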

How the results depend on the processing

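No paired analysis was possible because each group has 1 array, and for the same reason no replicate could be left out. In the drug pair and the knockdown pair none of the 7 genes passed the 2-fold limit under any alternative at that limit. Between the controls up to 4 did. In the 2 pairs 11 of the 14 log2 ratios of these genes kept their sign over the planned settings. The fold limits, the detection filters and the mean of the probes could not change these ratios. Each of the 7 genes had 1 probe and was detected on every array. At 1.5-fold, 1 member passed with 5-Aza-CdR. The median of the members with 5-Aza-CdR was 0.21 in the deposited intensities and -0.29 with 75th percentile scaling, where all genes had medians of 0.17 and -0.34. With Dnmt1 knockdown it was 0.20 in the deposited intensities (all genes 0.19) and 0.17 with the local background subtracted, which was chosen after seeing the data. The median of the nucleotide list with 5-Aza-CdR was 0.27 in the deposited intensities and 0.37 with median scaling, and with Dnmt1 knockdown 0.14 in the deposited intensities. With 5-Aza-CdR, listed genes called higher were 3 in the deposited intensities (6.05% of all genes), 3 at an offset of 16 (1.55%), 3 with plain blank subtraction (4.25%), 3 with median scaling (2.2%), 3 at 1.5-fold (2.67%) and 1 with quantile normalization within each comparison (1.06%), and those called lower were 2 with plain subtraction (4.34%), 1 at 1.5-fold (2.47%) and 3 with the local background subtracted (0.876%). With Dnmt1 knockdown, those called higher were 4 in the deposited intensities (5.91%), 1 at an offset of 16 (0.514%), 3 with plain subtraction (1.42%), 3 at 1.5-fold (1.08%) and 1 with the local background subtracted (1.44%), and those called lower were 1 with plain subtraction (2.33%) and 2 with the local background subtracted (2.52%). The cause of these shifts was not tested. Of all genes called with 5-Aza-CdR, 58.9% were higher, against 74.3% in the deposited intensities and 86.9% with median scaling. With Dnmt1 knockdown the share was 70.2%, against 87.9% in the deposited intensities, 56.5% at an offset of 16, 37.8% with plain subtraction and 36.4% with the local background subtracted. Dck and Slc29a2 lay 14.4 to 46.8 units above the blank mean, below the offset of 50, and the offset draws their ratios toward 0. In the knockdown pair Samhd1 (83.4 with Dnmt1 knockdown and 54.2 in the control shRNA) and Ada (69.4 and 52.5) lay not far above the offset. Their ratios there are drawn in as well, and were 0.63 and 0.40 with plain blank subtraction.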

Other observations

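By the 2-fold rule 4 of the 62 listed genes were called higher in the control shRNA and 5 lower, relative to the untreated control, beside 7.91% of all 15141 genes called in either direction. The genes named here were chosen after their values were seen. Cmpk (Cmpk1), the cytosolic kinase of CMP, dCMP and UMP, had 1023 in the control shRNA and 546 in the untreated control as deposited intensities. Nt5c3, a pyrimidine nucleotidase, had 328 and 173 on these arrays (normalized log2 ratio 1.19), and the efflux pump Abcb1a had 116 and 37.1 (1.36). Upp1, uridine phosphorylase, had 11 in the control shRNA and 220 in the untreated control (-2.26). The virus, the selection and the day of harvest cannot be told apart in this contrast.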
